A study of Mus musculus with 10 samples.

Results

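Triglyceride assembly and glyceroneogenesis were followed through 9 genes in the inguinal white fat depot (iWAT) of male mice. The genes were picked by name for their place in the pathway. The rule uses no measured level, but earlier results of these data were known when it was set. The genes are Gpd1, Pck1, Gpam, Agpat2, Agpat3, Lpin1, Lpin2, Dgat1 and Dgat2. All 9 were found among the 33120 genes that have an exon length, out of 51826 genes listed. RNA-seq libraries from C57BL/6 males formed 4 groups, with 1 library per mouse. Tissue of the F1 males was taken at 5 weeks of age, and after weaning they had eaten only the control diet (CD). Of these, 3 had fathers on the CD (CD offspring) and 3 had fathers on a low-protein diet (LPD; pLPD offspring). The 3 mice of each F1 group came from different mothers, and every mother was fed the CD. The F0 males were 10 to 12 weeks old and had received the CD (2 mice) or the LPD (2 mice) since weaning. In both generations the comparison asks how the LPD, eaten by the father or by the mouse itself, relates to the mRNA level of each gene.

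Adipocytes store fatty acids as triglyceride, which they build on a backbone of glycerol 3-phosphate. This backbone is made from dihydroxyacetone phosphate by the dehydrogenase that Gpd1 encodes. Dihydroxyacetone phosphate comes from glycolysis or, by way of glyceroneogenesis, from non-sugar precursors. In glyceroneogenesis the phosphoenolpyruvate carboxykinase encoded by Pck1 is the key step. Acyl chains are then added by the product of Gpam and by the AGPAT enzymes, the lipins remove the phosphate to give diacylglycerol, and a DGAT enzyme attaches the last acyl chain.

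Between 6351075 and 10044546 reads per library lay on exons, and the 9 genes together took 0.706% to 1.003% of them. All 6 adipocyte markers, among them Adipoq and Plin1, were detected in every library, so each held adipocyte RNA. The label of the depot was not tested. The pLPD offspring stood apart in the make-up of their reads. Exons held 51.6% to 59.3% of their reads on nuclear genes against 62.5% to 64.0% in CD offspring, and mitochondrial rRNA took 13.5% to 18.2% of reads on genes against 9.29% to 10.5%. In F0 the exon share was 62.1% to 63.6% on the CD and 62.5% to 63.7% on the LPD, and mitochondrial rRNA took 9.59% to 9.85% and 10.9% to 12.4%. Other cell types also moved with diet. The summed level of 5 macrophage markers was 346 to 416 CPM (exon reads scaled to 1000000 per library) in pLPD offspring and 522 to 611 CPM in CD offspring. That of 6 fibroblast and progenitor markers was 4442 to 5315 CPM against 6285 to 11343 CPM. Most of this sum was Col1a1, at 3710 to 4495 CPM against 5246 to 10336 CPM. Pdgfra, Dpp4 and Cd34 were also lower in all pLPD offspring, while Dcn (421 to 504 CPM against 412 to 570 CPM) and Ly6a overlapped. The 5 epithelial markers summed to 0.152 to 3.23 CPM against 8.55 to 12.7 CPM. Krt5 had 0 reads in all pLPD offspring and 0 to 7 in CD offspring. In F0, 5 beige adipocyte markers summed to 624 to 741 CPM on the LPD and 121 to 249 CPM on the CD, while 8 skeletal muscle markers summed to 695 to 946 CPM and 1344 to 2004 CPM. The macrophage markers summed to 491 to 506 CPM on the LPD and 577 to 601 CPM on the CD in F0, and 8 T and B cell markers to 446 to 488 CPM and 363 to 407 CPM. In F1 the beige markers overlapped between the paternal diets, at 1155 to 1712 CPM in CD offspring and at 2189, 708 and 795 CPM in pLPD offspring, where replicate 1 stood apart. In a piece of whole tissue, fewer cells of a type and less RNA per cell cannot be told apart.

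The 9 genes differed widely in level. Levels between genes were compared in RPKM, which divides the exon reads by exon length. Gpd1 was the highest in CD offspring at 670 ± 45.5 RPKM (SD, n = 3), in pLPD offspring at 455 ± 67.6 RPKM (SD, n = 3) and in CD-fed F0 males at 385 ± 45.0 RPKM (SD, n = 2). In LPD-fed F0 males Pck1, at 471 ± 126 RPKM (SD, n = 2), had the higher mean than Gpd1, at 348 ± 57.8 RPKM (SD, n = 2), but the libraries of these 2 genes overlapped. Dgat2, Agpat2 and Pck1 came next in the other groups, with means of 161 to 306 RPKM, and neighbours among them overlapped in places: Dgat2 with Agpat2 in CD offspring, Dgat2 with Pck1 in pLPD offspring and in CD-fed F0 males, and Pck1 with Agpat2 in pLPD offspring. Lpin1, Gpam, Dgat1 and Agpat3 followed in this order in all 4 groups, at 36.4 to 52.9, 24.5 to 37.1, 18.7 to 24.7 and 12.6 to 17.0 RPKM, and only Lpin1 and Gpam in pLPD offspring overlapped. Lpin2 was the lowest everywhere, at 0.960 to 1.23 RPKM. Between the isoenzymes, Lpin1 exceeded Lpin2 by 29.4-fold to 54.0-fold, Agpat2 exceeded Agpat3 by 7.95-fold to 17.4-fold and Dgat2 exceeded Dgat1 by 8.45-fold to 15.6-fold in RPKM over the 10 libraries.

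Agpat2, Gpd1 and Lpin2 share their place in the genome with other annotated genes, and part of their exon reads did not match them alone. Whether the overlap is the reason was not tested. Agpat2 (chr2:26593057-26604417, minus strand, mm10) lies wholly inside Gm20532 on the opposite strand, and 35.9% to 48.0% of its exon reads matched it alone. Gpd1 (chr15:99717515-99725005, plus strand) is overlapped by the antisense gene Gm16537, and 49.997% to 63.0% of its exon reads were unique. Lpin2 (chr17:71182560-71249817, plus strand) lies inside the lincRNA gene Gm26561 on the same strand, and 32.0% to 52.4% of its exon reads were unique. The exon reads of the other 6 genes were 100% unique in every library. Gm20532 had 0 to 1 exon reads per library, Gm16537 0 to 3 and Gm26561 5 to 40. Egfl7, on the opposite strand, reaches into the 3′ end of Agpat2 and had 299 to 560 exon reads, of which 187 to 313 were unique. AC160411.1, which touches the 5′ end of Agpat3 from the opposite strand, had 0 to 1. Whether the counting used strand is not given in the sources used here. Reads that cross exon junctions were at least 93.8% unique in all 9 genes and were therefore compared as well.

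The promoters of Pck1 and Agpat2 are shown because, of the genes with a window, these had the smallest p-values in F1, 1 in each direction, and that of Gpam because it was the gene that passed the test in F0; the choice of Gpam was made after its values were seen. The windows are the 250 bases before the RefSeq start site in GRCm38.p6, at chr2:173152823-173153072 (plus strand) for Pck1, chr2:26604418-26604667 (minus strand) for Agpat2 and chr19:55099478-55099727 (minus strand) for Gpam, written 5′ to 3′ along the gene. RefSeq gives Gpam a second start site far upstream, with its window at chr19:55127239-55127488, and the window printed is that of the start nearest to the gene start in the deposited files. Capitals mark exact matches, on either strand, to the motifs searched.
Pck1: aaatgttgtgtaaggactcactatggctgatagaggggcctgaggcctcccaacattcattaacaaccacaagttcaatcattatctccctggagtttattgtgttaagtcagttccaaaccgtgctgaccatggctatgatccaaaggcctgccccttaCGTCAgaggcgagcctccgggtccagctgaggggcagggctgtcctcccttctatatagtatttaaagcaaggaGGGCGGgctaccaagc
Agpat2: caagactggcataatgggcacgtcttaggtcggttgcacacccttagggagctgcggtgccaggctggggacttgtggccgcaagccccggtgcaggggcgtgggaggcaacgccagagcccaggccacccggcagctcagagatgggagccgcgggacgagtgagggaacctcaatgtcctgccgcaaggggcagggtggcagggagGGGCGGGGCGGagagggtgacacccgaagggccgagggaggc
Gpam: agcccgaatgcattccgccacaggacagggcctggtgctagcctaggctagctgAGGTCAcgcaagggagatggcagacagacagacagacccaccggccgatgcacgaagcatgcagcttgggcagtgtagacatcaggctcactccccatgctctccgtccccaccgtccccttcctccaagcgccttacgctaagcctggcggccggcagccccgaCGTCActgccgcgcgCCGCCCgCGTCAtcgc

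In the Pck1 window, the core of the cAMP response element (TGACG), the element for which this promoter is best known, lies on the minus strand 86 to 90 bases before the start, and a GC box (GGGCGG) lies 11 to 16 bases before it. The Agpat2 window holds 2 GC boxes, 32 to 37 and 37 to 42 bases before the start, which overlap by 1 base. The printed Gpam window holds 2 TGACG cores, 5 to 9 and 27 to 31 bases before the start, 1 GC box between them and 1 nuclear receptor core (AGGTCA) 191 to 196 bases before it. Of 32851 RefSeq windows of this length, 17.8% hold TGACG, 32.7% GGGCGG and 14.0% AGGTCA on either strand. CACGTG (E-box, the core of the element that ChREBP binds), CCAAT and TATAAA were searched too, occur in 6.02%, 33.8% and 12.4% of all windows, and have no match in these 3. The upstream Gpam window holds 1 CCAAT, 70 to 74 bases before its start, and none of the other motifs. In all, 6 of the 9 genes had a window in the table used. Gpd1, Dgat1 and Dgat2 were not in it.

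**Figure D1:**
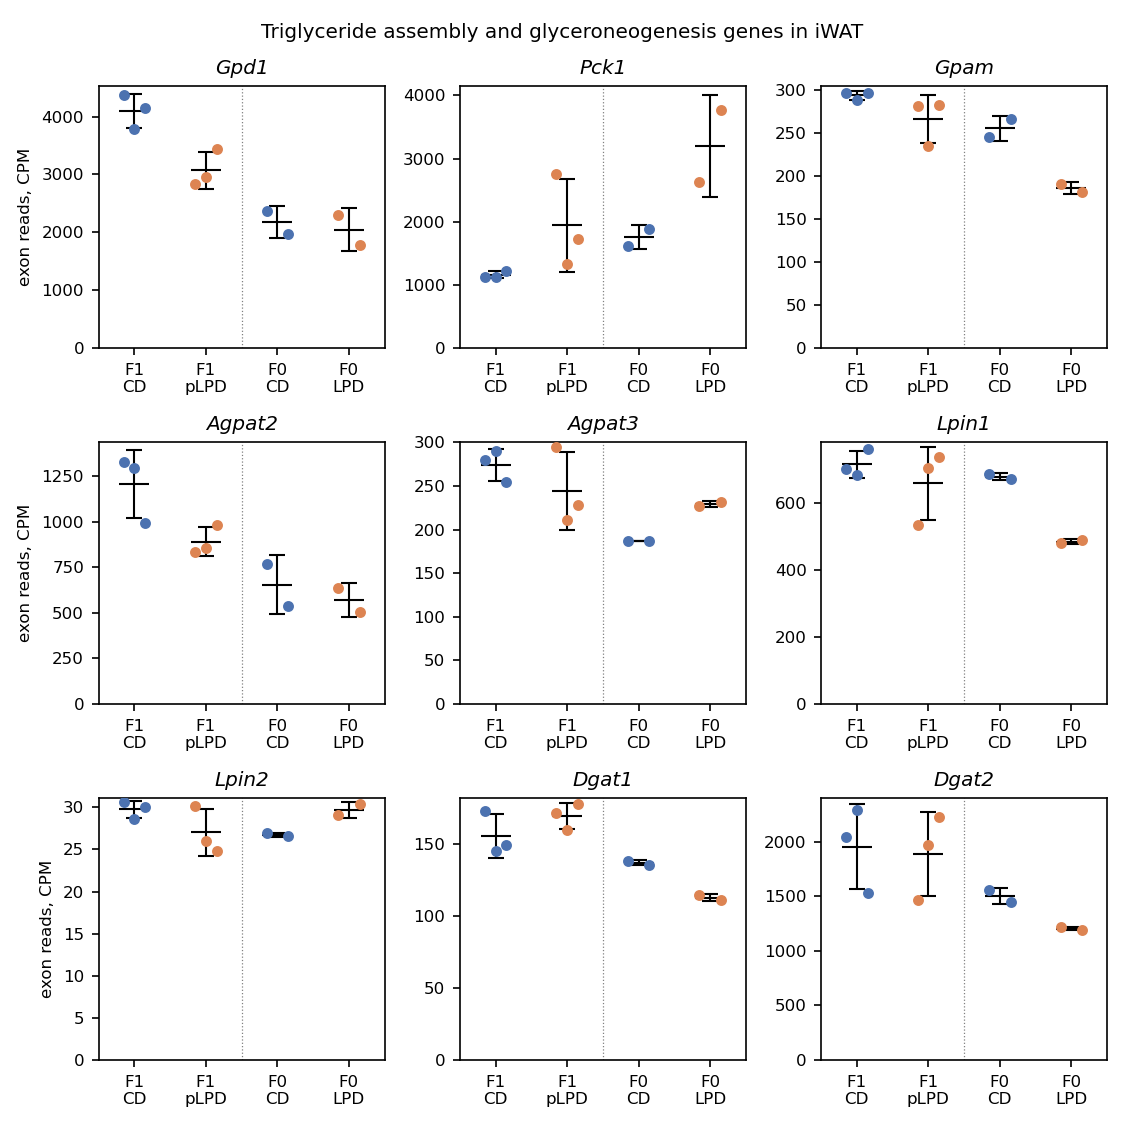
Exon reads of the 9 genes in each library, in CPM (linear axis from 0), with the mean and SD of each group as bars (3, 3, 2 and 2 mice). Pck1 was above the CD range in every mouse of both LPD groups, Gpd1 and Agpat2 were below it in the pLPD offspring, and Gpam, Lpin1, Dgat1 and Dgat2 were below it in the LPD-fed F0 males.

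In the F1 comparison, Pck1 was higher in all 3 pLPD offspring, Gpd1, Agpat2 and Gpam were lower in all 3, and the other 5 genes overlapped between the paternal diets. None of these differences passed edgeR's quasi-likelihood test at an adjusted p under 0.05. Over the 14049 genes tested, 1.17% passed, and the groups of 20% did not overlap (9.01% higher, 11% lower). At an unadjusted p under 0.05, 1 member was higher and 2 were lower, where 6.57% and 8.76% of all genes were. DESeq2 called 2 of the 9 (Gpd1 and Agpat2), edgeR's likelihood ratio test called 3 (Pck1 as well) and limma on RPKM called 0. The shares of all genes that these methods called are not given here, so their counts cannot be read against the 1.17%. The median log2 fold change of the 9 genes was −0.13, beside 0.01 over all genes tested.

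Pck1 (chr2:173153048-173159273, plus strand), the gene of glyceroneogenesis, stood at 1130, 1131 and 1225 CPM in the CD offspring and at 2756, 1336 and 1729.5 CPM in the pLPD offspring. The 3 CD offspring were close together, whereas pLPD replicate 1 was far above the other pLPD mice. The log2 fold change was 0.75 (SE 0.21, adjusted p = 0.108, edgeR quasi-likelihood). Without pLPD replicate 1 it was 0.41 (adjusted p = 0.321), and this library also had the lowest exon share, 51.6%, and the highest beige marker sum, 2189 CPM. The part of these in the Pck1 difference was not tested. In a fit that also held each library's exon share as a term, Pck1 was at −0.02 (SE 0.20). The exon shares of the F1 groups did not overlap, so such a fit cannot tell diet and exon share apart. This limit holds for every F1 value below that was fitted with the exon share as a covariate. On reads across exon junctions it was 0.74 and passed edgeR's test (adjusted p = 0.0436), as 1.35% of the 9876 genes tested on such reads did.

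Gpd1, whose product makes glycerol 3-phosphate, stood at 4366, 3781 and 4147 CPM in the CD offspring. In the pLPD offspring it stood at 2837, 2949 and 3438 CPM. Every pLPD mouse was below every CD mouse, with a log2 fold change of −0.40 (SE 0.12, adjusted p = 0.126, edgeR quasi-likelihood). DESeq2 gave an adjusted p of 0.0032 for the same counts, and edgeR on junction reads gave −0.42 (adjusted p = 0.0711). With the exon share as a covariate the log2 fold change was −0.27 (SE 0.17).

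Gpam (chr19:55069734-55099451, minus strand) encodes the mitochondrial glycerol-3-phosphate acyltransferase, which adds the first acyl chain. It stood at 297, 288 and 296 CPM in the CD offspring and at 282, 234 and 282 CPM in the pLPD offspring, so the groups were apart by a narrow gap. On the log2 scale the difference was −0.13 (SE 0.09, adjusted p = 0.538, edgeR quasi-likelihood).

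Agpat2, whose product adds the second acyl chain and whose loss is known to cause lipodystrophy, stood at 1328, 1296 and 991 CPM in the CD offspring and at 834, 855 and 981 CPM in the pLPD offspring. The lowest CD mouse, replicate 3, was just above the highest pLPD mouse. The log2 fold change was −0.43 (SE 0.12, adjusted p = 0.127, edgeR quasi-likelihood). Without CD replicate 3 it was −0.55 and passed (adjusted p = 0.0152), and on junction reads it was −0.37 (adjusted p = 0.145). With the exon share as a covariate it was −0.26 (SE 0.19). Agpat3 (chr10:78269178-78352489, minus strand), a related acyltransferase, stood at 280, 290 and 254 CPM in the CD offspring and at 295, 211 and 228 CPM in the pLPD offspring. Its groups overlapped, with a log2 fold change of −0.16 (SE 0.12).

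The phosphatidate phosphatase gene Lpin1 (chr12:16535669-16610966, minus strand) stood at 702, 682 and 760 CPM in the CD offspring and at 534, 704 and 737 CPM in the pLPD offspring. Here pLPD replicate 1 was again the mouse that differed, this time below the rest. Lpin2 stood at 30.6, 28.7 and 30.0 CPM in the CD offspring and at 30.2, 26.0 and 24.9 CPM in the pLPD offspring. The log2 fold changes, −0.11 (SE 0.12) for Lpin1 and −0.13 (SE 0.12) for Lpin2, were of about the size of their standard errors. For the last step, Dgat1 (chr15:76502015-76511951, minus strand) stood at 174, 145 and 150 CPM in the CD offspring and at 172, 160 and 178 CPM in the pLPD offspring. Dgat2 (chr7:99153658-99182719, minus strand) stood at 2044, 2289 and 1532 CPM in the CD offspring and at 1464, 1966 and 2222 CPM in the pLPD offspring. Both DGAT genes overlapped between the paternal diets, with log2 fold changes of 0.13 (SE 0.09) and −0.04 (SE 0.17).

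**Figure D2:**
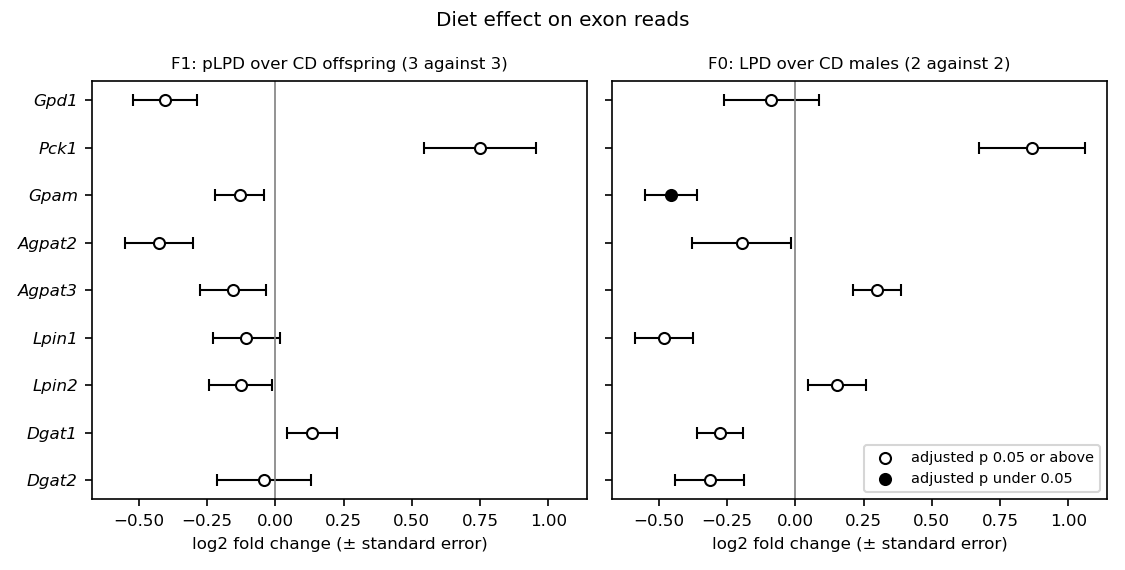
Log2 fold change of exon reads, LPD over CD, with its standard error (bars) for each gene, in the F1 offspring by the father's diet (left, 3 against 3 mice) and in the F0 males by their own diet (right, 2 against 2). A filled circle marks an adjusted p under 0.05 in edgeR's quasi-likelihood test, which Gpam in F0 alone reached; Pck1 lay to the right in both panels, at 0.75 and 0.87.

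In the F0 comparison, Gpam fell by 0.45 on the log2 scale (SE 0.10, adjusted p = 0.0476, edgeR quasi-likelihood), which is 1.37-fold lower on the LPD. It was the only member past the threshold, where 2.5% of the 14581 genes tested were (1.32% lower). Lpin1 and Pck1 came just short of it, and at an unadjusted p under 0.05 there were 2 members higher and 4 lower, against 7.53% and 8.2% of all genes. The groups of 7 of the 9 genes did not overlap, 3 higher and 4 lower, but with 2 mice against 2 the same held for 46.4% of all genes tested, 22.6% higher and 23.9% lower. The median log2 fold change of the 9 genes was −0.20, beside 0.00035 over all genes tested.

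Gpam stood at 245 and 266 CPM in the CD-fed F0 males and at 191 and 181 CPM in the LPD-fed F0 males, a gap wider than the spread within either group. The call was lost when any of the 4 libraries was left out (adjusted p = 0.0579 to 0.253 in edgeR's quasi-likelihood test, log2 fold change −0.51 to −0.40), on junction reads (−0.46, adjusted p = 0.0854), in a fit of all 4 groups (adjusted p = 0.0637) and with limma on RPKM (adjusted p = 0.068). It held in the other 10 alternatives that used every library. Lpin1 stood at 686 and 670.5 CPM on the CD and at 479 and 490 CPM on the LPD, again with little spread within a group. Its log2 fold change was −0.48 (SE 0.11, adjusted p = 0.0543, edgeR quasi-likelihood), and DESeq2 called it (adjusted p = 0.0019).

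Pck1 stood at 1617 and 1892 CPM on the CD and at 2623 and 3767 CPM on the LPD. Both LPD-fed mice were above both CD-fed mice, and the LPD-fed mice differed from each other by more than the groups' nearest values did. The log2 fold change was 0.87 (SE 0.19, adjusted p = 0.0572, edgeR quasi-likelihood). It passed with DESeq2, on junction reads (0.88, adjusted p = 0.0470, where 1.59% of genes passed) and without LPD replicate 1 (1.10, adjusted p = 0.0034), and was 0.59 without LPD replicate 2 (adjusted p = 0.339). Gpd1, by contrast, stood at 2371 and 1979 CPM on the CD and at 2304 and 1780 CPM on the LPD. Its groups overlapped, and the log2 fold change was −0.09 (SE 0.17). The summed beige markers were also higher in both LPD-fed mice and the summed muscle markers lower, at the levels given above, and their part in the differences of Gpam, Lpin1 and Pck1 was not tested.

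Among the acyltransferases, Agpat3 stood at 187 and 187 CPM on the CD and at 227 and 232 CPM on the LPD, with a log2 fold change of 0.30 (SE 0.09, adjusted p = 0.130, edgeR quasi-likelihood). Agpat2 stood at 768 and 540 CPM on the CD and at 635 and 503 CPM on the LPD, and its groups overlapped (log2 fold change −0.20, SE 0.18). Among Gpam, Agpat2 and Agpat3, only Agpat3 had both LPD mice above both CD mice, as 22.6% of all genes tested did. Agpat2 and Gpam had negative values. Lpin2 stood at 26.9 and 26.6 CPM on the CD and at 29.0 and 30.4 CPM on the LPD, opposite in sign to Lpin1, with a log2 fold change of 0.15 (SE 0.11). Dgat1 stood at 138 and 136 CPM on the CD and at 115 and 111 CPM on the LPD, with a log2 fold change of −0.28 (SE 0.08, adjusted p = 0.138, edgeR quasi-likelihood). Dgat2 stood at 1552.5 and 1446 CPM on the CD and at 1216 and 1192 CPM on the LPD, with a log2 fold change of −0.31 (SE 0.13, adjusted p = 0.268, edgeR quasi-likelihood). Both DGAT genes were lower in both LPD-fed mice, and neither passed the test.

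Whether the diet effect differed between the generations was tested as an interaction in a fit of all 10 libraries. None of the 9 genes passed edgeR's quasi-likelihood test, where 1.25% of 15111 genes did. At an unadjusted p under 0.05, 2 members were higher and 1 was lower, where 4.91% and 7.58% of all genes were. DESeq2, edgeR's likelihood ratio test and limma each called 0. The F1 effect minus the F0 effect was 0.40 for Dgat1 (SE 0.13, adjusted p = 0.186), −0.46 for Agpat3 (SE 0.18, adjusted p = 0.280) and 0.31 for Gpam (SE 0.14, adjusted p = 0.362) on the log2 scale, by edgeR's quasi-likelihood test. For Pck1 it was −0.12 (SE 0.34). Without pLPD replicate 1, Agpat3 passed in the same test (−0.62, adjusted p = 0.0312). Generation, age and the set of libraries cannot be told apart here.

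Age and generation were compared through the CD groups, in which 18.9% of 15111 genes passed. The CD-fed F0 males were lower than the CD offspring in 3 genes, with F0 minus F1 differences of −0.93 for Gpd1 (SE 0.15, adjusted p = 0.00094), −0.90 for Agpat2 (SE 0.17, adjusted p = 0.0033) and −0.57 for Agpat3 (SE 0.13, adjusted p = 0.0076) on the log2 scale in edgeR's quasi-likelihood test. These were 3 of 9 members, where 10.1% of all genes tested were called lower and 8.78% higher. Pck1 was the member with the opposite sign, at 0.58 (SE 0.23, adjusted p = 0.104, edgeR quasi-likelihood). Agpat2 (−0.66, adjusted p = 0.0738) and Agpat3 (−0.56, adjusted p = 0.0847) lost their calls without CD replicate 2 of F0, whereas Gpd1 kept its call whichever of the 10 libraries was left out. On junction reads the differences were −1.28 for Gpd1 and −1.22 for Agpat2. This comparison shares its control mice with both diet comparisons.

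Reads on introns, which come mostly from unspliced RNA, gave a partly different picture. In F0, 3.48% of 14334 genes passed edgeR's test on intron reads, and 4 of the 9 members did. Dgat2 had 398 and 663 intron reads on the CD and 1419 and 1121 on the LPD. Both LPD libraries thus held more than both CD libraries, at exon reads that were lower. The log2 fold change on introns was 1.35 (SE 0.16, adjusted p = 0.0023, edgeR quasi-likelihood), opposite in sign to the −0.31 on exons, and it passed whichever of the 4 libraries was left out (1.07 to 1.71). The intron share of the reads on Dgat2 was 2.80% and 4.42% in the CD-fed F0 males, below the 9.08% to 13.7% in the other 8 libraries. The intron share gave an exact two-sided permutation p of 0.333 for F0, which is the smallest that 2 against 2 allows.

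Gpam had 763 and 1146 intron reads on the CD and 485 and 423 on the LPD, so here introns and exons went the same way. Its log2 fold change on introns was −0.97 (SE 0.14, adjusted p = 0.0062, edgeR quasi-likelihood), and it passed without each of the 4 libraries (−1.20 to −0.71). Pck1 rose by 0.52 on introns in F0 (SE 0.11, adjusted p = 0.0341, edgeR quasi-likelihood), a call that was lost without LPD replicate 2 (adjusted p = 0.205). Agpat2 rose by 0.77 on introns (SE 0.09, adjusted p = 0.0023, edgeR quasi-likelihood), but all of its introns lie inside Gm20532 and reads there cannot be told apart between the 2 genes without strand.

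In F1, 0.424% of 13456 genes passed on intron reads, and Pck1 was the 1 member that did. It had 320, 270 and 397 intron reads in the CD offspring and 574, 602 and 600 in the pLPD offspring. In these intron counts, which are not scaled for depth, pLPD replicate 1 did not stand apart from the other pLPD mice. On exons, compared in CPM, it did. The log2 fold change was 0.97 (SE 0.17, adjusted p = 0.0309, edgeR quasi-likelihood), and it was 0.79 to 1.16 when a library was left out, with 1 of these 6 fits past the threshold, that without CD replicate 3. Introns of all nuclear genes held more of the reads in pLPD offspring, as the exon shares above show, and the part of this in the Pck1 result was not tested. The diet effect on introns differed between the generations for Dgat2 (F1 minus F0 −1.63, SE 0.27, adjusted p = 0.0097) and Gpam (0.85, SE 0.18, adjusted p = 0.0373) in edgeR's quasi-likelihood test, where 1.28% of 14823 genes passed. In CD-fed F0 males against CD offspring, 6 of the 9 members passed on introns, where 12% of genes did, and Dgat2 had the widest difference, −2.16 on the log2 scale.

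**Figure D3:**
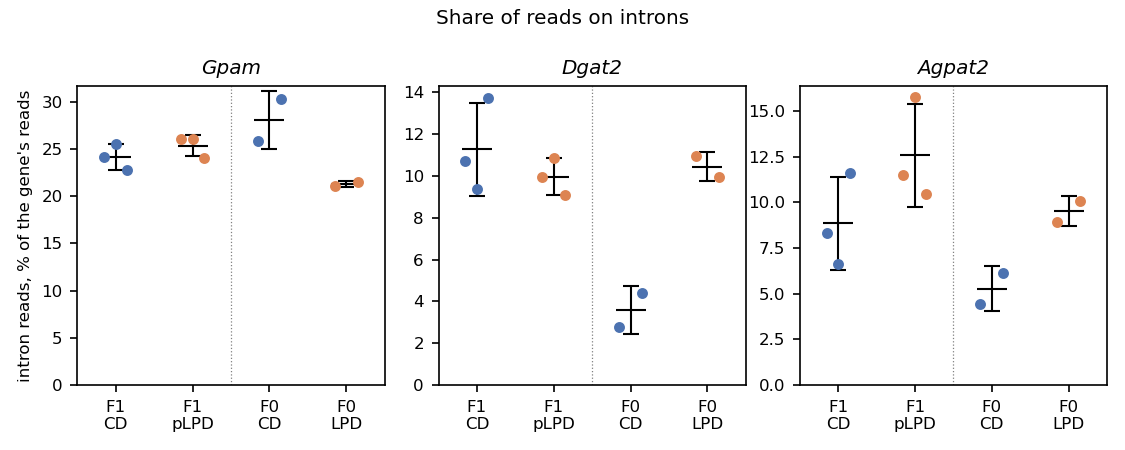
Intron reads as a percentage of all reads on Gpam, Dgat2 and Agpat2 in each library (linear axes from 0), with the mean and SD of each group as bars. For Dgat2, the 2 CD-fed F0 males sit at 2.80% and 4.42%, apart from the 9.08% to 13.7% of the other libraries; for Gpam, the LPD-fed F0 males are lowest at 21.1% and 21.6%.

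Ratios of members within a library do not depend on how libraries are scaled. The ratio of Pck1 to Gpd1 in RPKM was 0.224 to 0.258 in the CD offspring and 0.391 to 0.839 in the pLPD offspring, and it was 0.589 to 0.825 in CD-fed and 0.983 to 1.83 in LPD-fed F0 males. The LPD groups were therefore above the CD groups of their generation without overlap, by 1.09 in F1 and 0.94 in F0 on the log2 scale. In F1, pLPD replicate 1 was far above the other pLPD offspring in this ratio, at 0.839 against 0.391 and 0.434. The exact two-sided permutation p was 0.1 in F1 and 0.333 in F0, the smallest that 3 against 3 and 2 against 2 allow. With Benjamini-Hochberg adjustment over the 10 ratio tests made, these exact permutation p-values became 0.5 and 0.556. The ratio of Lpin1 to Lpin2 was 45.9 and 46.4 in the CD-fed F0 males and 30.1 and 29.4 in the LPD-fed ones, 0.64 lower on the log2 scale, while in F1 it overlapped between the paternal diets. The ratio of Gpd1 to Gpam was 17.0 to 19.0 in the CD offspring and 13.0 to 16.3 in the pLPD offspring, but in F0 it was higher on the LPD (12.7 to 15.6) than on the CD (9.63 to 12.5).

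**Figure D4:**
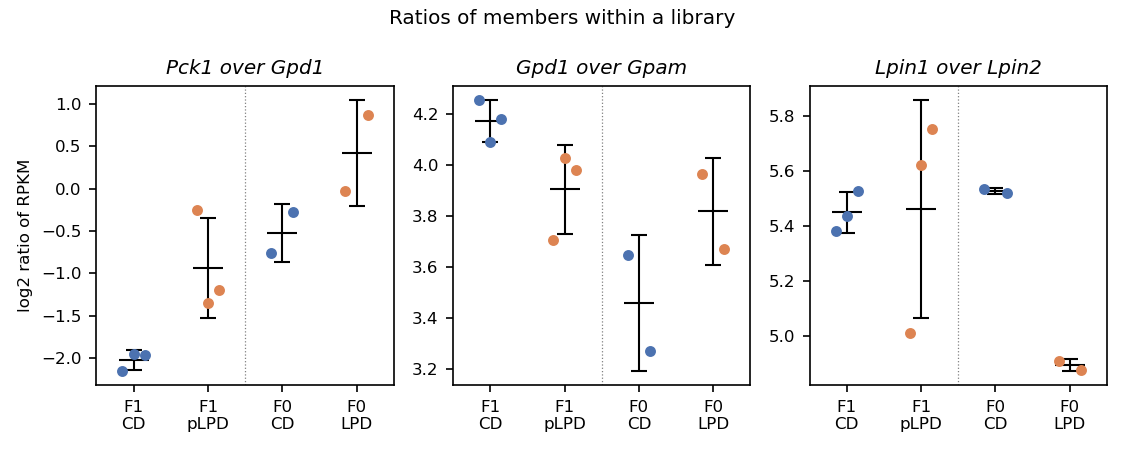
Log2 ratios of RPKM between 2 members within each library, with the mean and SD of each group as bars. The ratio of Pck1 to Gpd1 was higher in the LPD group of both generations, by 1.09 and 0.94, and the ratio of Lpin1 to Lpin2 was lower in the LPD-fed F0 males, by 0.64.

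Beyond the 9 genes, 23 further genes of glycerol 3-phosphate supply and triglyceride assembly were followed. In F1, 21 of them could be tested and none passed edgeR's quasi-likelihood test. At an unadjusted p under 0.05, 3 were higher and 5 were lower, where 6.57% and 8.76% of all genes were, and the median log2 fold change was −0.10, beside 0.0074 over all genes. The smallest p-values belonged to Mogat1 (−0.75, SE 0.22, adjusted p = 0.129), which encodes an acyltransferase of monoacylglycerol, and Gpat3 (0.40, SE 0.12, adjusted p = 0.151), which encodes a further glycerol-3-phosphate acyltransferase, in edgeR's quasi-likelihood test. In F0, 22 were tested, 2 rose and 1 fell in edgeR's test, where 2.5% of all genes passed, and the median was −0.04.

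Gk, which encodes the glycerol kinase that makes glycerol 3-phosphate directly from glycerol, stood at 11.2 and 8.76 CPM on the CD and at 22.4 and 29.3 CPM on the LPD in F0. It rose by 1.37 on the log2 scale (SE 0.18, adjusted p = 0.0113, edgeR quasi-likelihood), and it passed without each of the 4 libraries in turn. The call was lost with all groups in 1 fit (adjusted p = 0.343) and with limma on RPKM (adjusted p = 0.0656). In F1 it stood at 38.5, 25.1 and 55.0 CPM in the CD offspring and at 120, 38.6 and 38.1 CPM in the pLPD offspring, where pLPD replicate 1 alone was far above the rest. That library also had the highest beige marker sum, 2189 CPM against 708 and 795 CPM in the other pLPD mice. Aqp7, the channel through which adipocytes release glycerol, stood at 94.7 and 113 CPM on the CD and at 145 and 211 CPM on the LPD in F0. It rose by 0.77 (SE 0.17, adjusted p = 0.0496, edgeR quasi-likelihood) and lost the call without CD replicate 1, CD replicate 2 or LPD replicate 2 (adjusted p = 0.0646 to 0.183), with a log2 fold change of 0.48 without LPD replicate 2. It was also lost with DESeq2's size factors in edgeR (adjusted p = 0.0520), on exons and introns together (adjusted p = 0.0684), with all groups in 1 fit (adjusted p = 0.0543) and with limma on RPKM (adjusted p = 0.154). Among kinds of fat, Gk is best known from brown and beige fat, and the beige markers that moved in the same direction in F0 are given above. The part of the beige markers in either generation was not tested.

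Fitm1, a fat storage gene known from skeletal muscle, had 20 and 26 exon reads on the CD and 5 and 1 on the LPD in F0. It fell by 2.82 on the log2 scale (SE 0.57, adjusted p = 0.0436, edgeR quasi-likelihood), a call lost when any of the 4 libraries was left out (adjusted p = 0.0566 to 0.252) and with DESeq2. All 8 muscle markers were lower in the LPD-fed F0 males, in sum 695 to 946 CPM against 1344 to 2004 CPM, and the part of this in the Fitm1 result was not tested. In F1, Fitm1 had 0 reads in 5 of 6 libraries and 2 in the other. The next smallest p-value in F0 belonged to Pcx (−0.64, SE 0.15, adjusted p = 0.0589, edgeR quasi-likelihood), whose product makes the oxaloacetate on which Pck1 acts. It stood at 1688 and 1980.5 CPM on the CD and at 1251 and 1097 CPM on the LPD. Mogat2, a relative of Mogat1, had 18 and 15 exon reads on the CD and 5 in each LPD library (log2 fold change −1.63, SE 0.48, adjusted p = 0.130, edgeR quasi-likelihood).

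**Figure D5:**
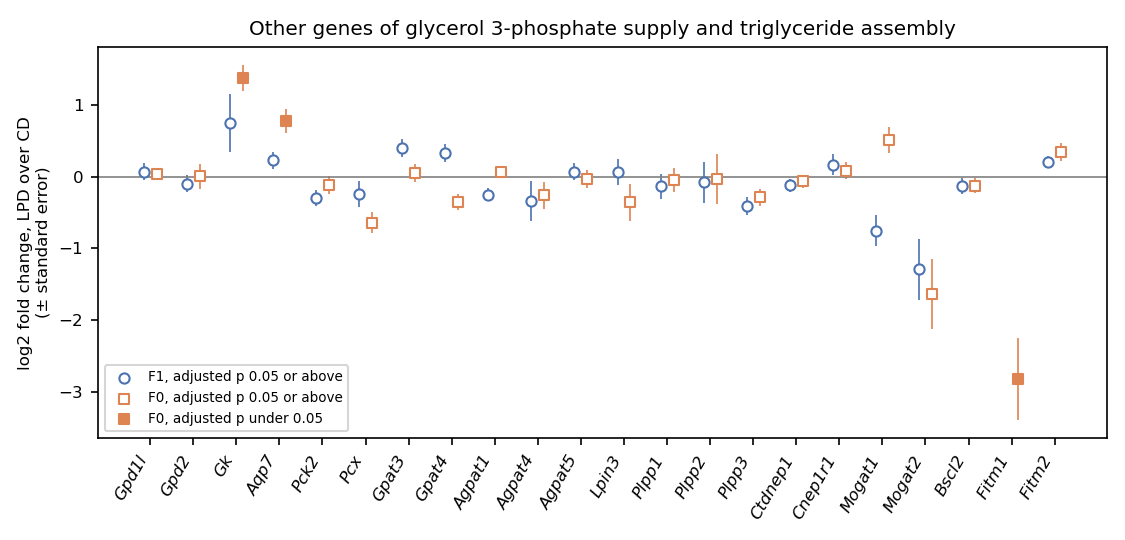
Log2 fold change, LPD over CD, with its standard error (bars) for the further genes of the pathway that could be tested, in F1 (circles) and F0 (squares). Filled squares mark an adjusted p under 0.05 in edgeR's quasi-likelihood test, reached in F0 by Gk (1.37), Aqp7 (0.77) and Fitm1 (−2.82); no gene reached it in F1.

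Of 13 genes of the phospholipid branch, which draws on the same phosphatidate and diacylglycerol, 12 could be tested and none passed edgeR's test in F1 or F0. At an unadjusted p under 0.05 there were 0 higher and 1 lower in F1, where 6.57% and 8.76% of all genes were. In F0 there were 2 higher and 1 lower, where 7.53% and 8.2% of all genes were. The smallest p-values were those of Chpt1 in F1 (−0.33, adjusted p = 0.135), whose product makes phosphatidylcholine from diacylglycerol, and of Selenoi in F0 (0.42, adjusted p = 0.134), whose product makes phosphatidylethanolamine from it, in edgeR's quasi-likelihood test. Over the further pathway genes, the phospholipid branch and the regulators together, edgeR's quasi-likelihood test called 1 gene in F1 and 3 in F0. DESeq2 called 3 and 4, and limma on RPKM called 1 and 0, with no share over all genes given here for either. Of 8 transcription factors and coactivators known to act on these genes, Ppargc1a, a coactivator that drives Pck1 in liver, passed in F1, where 1.17% of all genes did. It stood at 18.8, 16.2 and 16.4 CPM in the CD offspring and at 46.3, 26.8 and 32.8 CPM in the pLPD offspring, a rise of 1.05 on the log2 scale (SE 0.18, adjusted p = 0.0260, edgeR quasi-likelihood). The call was lost without CD replicate 1 (adjusted p = 0.0945), CD replicate 2 (adjusted p = 0.125) or pLPD replicate 1 (adjusted p = 0.0541), and with the exon share as a covariate (0.46, adjusted p = 0.594). It was also lost on intron reads (0.46, adjusted p = 0.118), on junction reads (adjusted p = 0.128) and with limma on RPKM (adjusted p = 0.0617), so the gene that limma called was another. The beige marker sum was highest in pLPD replicate 1, as Ppargc1a was, and its part in this result was not tested. Mlxipl, which encodes ChREBP, was at −0.55 in F1 (SE 0.13, adjusted p = 0.0703) and −0.59 in F0 (SE 0.14, adjusted p = 0.0756) and passed in neither fit of edgeR's quasi-likelihood test. None of the 8 passed edgeR's test in F0. At an unadjusted p under 0.05 there were 0 higher and 2 lower, against 7.53% and 8.2% of all genes. In CD-fed F0 males against CD offspring, Pparg (0.38) and Nr3c1 (0.36) were called higher and Mlxipl (−0.60) lower by the same test, as were Pcyt2 (−0.63), Chkb (−0.61), Pck2 (−0.49), Gpd2 (−0.67), Gk (−2.00) and Ctdnep1 (−0.28). Fitm1 was called higher there, with 20 and 26 reads in the CD-fed F0 males and 0 in the CD offspring. Of all genes tested between the CD groups, 8.78% were called higher and 10.1% lower.

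Across all 10 libraries, Pck1 ran against most of the other members. Pearson's r of log2 CPM was −0.88 for Pck1 with Lpin1, −0.80 with Agpat2, −0.79 with Gpd1, −0.78 with Dgat2 and −0.71 with Gpam. The highest r between members was 0.96, for Agpat2 and Gpd1, both of which were lower in F0 than in F1. Over the same 10 libraries, the genes most like Pck1 were Anapc1 (r = 0.98), Acvr1c (0.96) and Pi4ka (0.96), and those most like Agpat2 were Sbk1 (0.98), Afmid (0.98) and Marcks (0.98). These values are descriptions over libraries that share generation, diet and library set, and the likest genes are the top of all genes compared.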

How the data were processed

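Total RNA of iWAT was depleted of rRNA and made into directional libraries, and CLC Genomics Workbench was used by the authors for mapping, with mm10 as the genome. The authors deposited, for each mouse, read counts per gene on exons, introns and exon junctions, total and unique, without normalization. The RPKM values were computed by the authors from total exon reads. Intron reads were taken here as total gene reads minus total exon reads. Other deposited columns were not used.

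Total exon reads of all genes with an exon length were fitted in R 4.3.3 with edgeR 4.0.16 (filterByExpr, TMM, two-sided quasi-likelihood F test, Benjamini-Hochberg adjustment over all genes tested, threshold 0.05), F1 and F0 apart. The interaction and the comparison of CD groups used all 10 libraries. CPM values were scaled by TMM over the 10 libraries. Depth limits low genes: 3 reads were taken as the floor, and such limits cover counting error only. Alternatives used DESeq2 1.42.0, limma 3.58.1 on log2(RPKM + 0.1), other filters, scalings and read classes, a replicate block, the exon share as a covariate and each library left out. Junction reads, and intron reads with a library left out, were chosen after seeing the data. Exact permutation tests used SciPy 1.17.1. The main quasi-likelihood fit of each comparison was tested on simulated data, and the alternatives were not.

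The members and lists were chosen with earlier results of these data known. Named were all 9 members, list genes past the threshold, up to 4 more per diet comparison with the smallest p, and the 3 genes most like each of Pck1 and Agpat2.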

Additional observations from a re-analysis of the deposited data

Results flagged for a closer look

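The effect of the LPD differed between the generations in 4 results, each by the interaction test in edgeR's quasi-likelihood fit of all 10 libraries. Generation, age and library set cannot be told apart in any of them.

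For Dgat2 intron reads the F1 effect minus the F0 effect was −1.63 (SE 0.27, adjusted p = 0.0097) on the log2 scale. The value was −1.99 to −1.35 when a library was left out, and it passed in all 10 of these fits. For Gpam intron reads it was 0.85 (SE 0.18, adjusted p = 0.0373), and 3 of the 10 fits that left out a library kept the call (0.58 to 1.07). On exon reads the same difference was 0.26 for Dgat2 and 0.31 for Gpam, and neither passed.

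For Mogat1 on exon reads the F1 effect minus the F0 effect was −1.27 (SE 0.26, adjusted p = 0.0391). Mogat1 stood at 7.66, 8.55 and 7.47 CPM in CD offspring, 4.25, 4.58 and 5.13 CPM in pLPD offspring, 8.08 and 7.25 CPM in CD-fed F0 males and 11.4 and 10.4 CPM in LPD-fed F0 males, which is 28 to 108 reads per library. The call was lost in 8 of the 10 fits that left out a library, with DESeq2 (adjusted p = 0.0535), with the replicate block (adjusted p = 0.0560), with the exon share as a covariate (adjusted p = 0.215), on exons and introns together (adjusted p = 0.110) and on junction reads (adjusted p = 0.163). On intron reads the Mogat1 difference was −0.21 (adjusted p = 0.939). For Ppargc1a it was 1.44 (SE 0.30, adjusted p = 0.0410), with 19.7 and 23.3 CPM in CD-fed and 13.4 and 19.4 CPM in LPD-fed F0 males, and the call was lost in 7 of those 10 fits. It was also lost with limma on RPKM (adjusted p = 0.0912), with the covariate (adjusted p = 0.270), on exons and introns together (adjusted p = 0.545) and on junction reads (adjusted p = 0.321). On intron reads the Ppargc1a difference was −0.62.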

How the results depend on the processing

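The number of members past the threshold was 0 in F1, 1 in F0, 0 for the difference between generations and 3 between the CD groups. Shares over all genes were given above only for edgeR's quasi-likelihood fits on exon, intron and junction reads. Counts from the other settings in this section therefore have no background beside them and may follow how many genes a setting calls in all. In F1 it was 3 with the likelihood ratio test, 2 with DESeq2, 3 with no filter, 1 on intron reads and 1 on junction reads. In F0 it was 3 with the likelihood ratio test, DESeq2, no filter, unique exon reads or the exon share as a covariate, 4 on intron reads, and 0 with limma on RPKM or all groups in 1 fit. On intron reads it was 2 for the difference between generations and 6 between the CD groups, where no filter gave 5. For the further genes, the count of 1 in F1 was 3 with the likelihood ratio test and DESeq2, 7 with no filter, 2 on unique reads or with all groups, and 0 with the covariate. Their count of 3 in F0 was 6 with the likelihood ratio test, 9 with no filter, 1 on exons and introns together, 5 on introns, 8 with the covariate, and 0 with limma or all groups.

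With a library left out, the members called ranged from 0 to 1 in F1, 0 to 1 in F0, 0 to 1 for the difference between generations and 1 to 4 between the CD groups, and the further genes from 0 to 5 in F1 and 1 to 4 in F0. In F0 this leaves a group with 1 library, which is assumed to vary like the others. Signs changed for Lpin1 (−0.19 to 0.024) and Dgat2 (−0.19 to 0.11) in F1, for Agpat2 (−0.43 to 0.084) and Gpd1 (−0.29 to 0.089) in F0, and for Pck1 between generations (−0.46 to 0.16).

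Whether the replicate numbers pair the mice is not given in the sources used here. Deviations of same-numbered libraries correlated at 0.0718, 0.0010 and 0.0175 in F1 and 0.060 in F0. With 2 libraries per F0 group, differently numbered ones there necessarily had the same value with the other sign, −0.060. Such correlations cannot show that no pairing exists. With a replicate block, 5 members and 10 further genes passed in F0, and 0 and 1 in F1. The share of all genes that this fit called is not given here, so these counts cannot be read as a result about the pathway.

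Direction reversed in these fits. In F1, intron reads gave 0.087 for Agpat2 and −0.10 for Dgat1, limma gave −0.026 for Dgat1, and the covariate gave 0.25 for Lpin1, 0.47 for Dgat2 and −0.017 for Pck1. In F0, intron reads gave 0.77 for Agpat2, −0.030 for Agpat3, 0.14 for Dgat1, 1.35 for Dgat2 and 0.079 for Gpd1. Between generations, intron reads gave −0.23 for Dgat1, −1.63 for Dgat2, 0.45 for Pck1 and −0.62 for Ppargc1a. Between the CD groups, intron reads gave 0.057 for Gpam and 0.28 for Lpin1, junction reads 0.0058 for Lpin1 and 0.079 for Dgat1, exons and introns together 0.0028 for Lpin1, and limma 0.040 for Lpin1. RPKM moved the median of all genes by −0.15 in F1 and 0.12 between the CD groups. The cause was not tested. Among the 9 members Lpin2 had the fewest exon reads, 160 to 276 per library, and Mogat1, Mogat2 and Fitm1 had fewer still.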
